A study of Homo sapiens with 12 samples.

Results

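Genes that license, start and run DNA replication were followed in TYK-nu cells, an established human ovarian cancer line, grown with 15 µM cisplatin or with its solvent DMSO. A list of 44 genes was chosen by name for their roles in replication and S phase. Of these, 42 had a row in the deposited table of 17508 genes, and MCM3 and RFC4 were not analysed here. The design held 4 groups of 3 RNA-seq libraries each: DMSO for 24 h, cisplatin for 24 h, DMSO for 72 h and cisplatin for 72 h. The study counted fragments in exons and in introns apart for every gene, to ask whether cisplatin changed how far RNA had been processed. All groups were the same unmodified line. The labels describe the cells as grown in triplicate but do not say how independent these cultures were, so p-values measure only the spread between these libraries, which may be technical.

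Before S phase, the origin recognition complex (ORC1 and ORC6 here), CDC6 and CDT1 load the MCM helicase onto origins of replication, and geminin (GMNN) later blocks CDT1 so that origins are not loaded again. MCM10, CDC45 and the GINS subunits turn the loaded helicase on, the sliding clamp PCNA and its loader RFC hold the polymerases on the template, and CAF-1, ASF1B, UHRF1 and DNMT1 restore nucleosomes and DNA methylation behind the fork. Many of these genes are targets of E2F transcription factors and are used mostly by dividing cells, while cisplatin forms crosslinks in DNA that block the fork.

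The E2F recognition sequence was looked for in the promoters, since the members moved together in these data. Promoter windows ran from 250 bases before to 50 bases after each start in RefSeq on GRCh38.p14, and 37 of the 42 members had at least 1 window, 48 in all, while MCM5, POLD3, GINS4, MCM4 and DSCC1 had none. The words TTTCCCGC, TTTGGCGC, TTTCGCGC and TTTGCCGC were searched on both strands, where matches can overlap each other. At least 1 word lay in 21 of the 48 member windows, 43.8%, against 5.15% of the 12316 windows of genes tested in exon counts and 3.31% of all 35116 windows. Stretches of 80 bases follow for 7 members from different steps of replication, to show where the word sits, with the words in capitals and each sequence written 5′ to 3′ on the strand of its gene:
UHRF1, chr19:4909948-4910027, plus strand: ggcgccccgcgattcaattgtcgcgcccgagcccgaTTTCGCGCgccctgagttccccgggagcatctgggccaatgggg
GINS2, chr16:85688955-85689034, minus strand: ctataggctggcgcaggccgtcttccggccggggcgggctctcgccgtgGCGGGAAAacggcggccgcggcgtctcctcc
PCNA, chr20:5126638-5126717, minus strand: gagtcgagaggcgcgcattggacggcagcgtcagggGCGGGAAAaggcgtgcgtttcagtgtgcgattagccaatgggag
GMNN, chr6:24775297-24775376, plus strand: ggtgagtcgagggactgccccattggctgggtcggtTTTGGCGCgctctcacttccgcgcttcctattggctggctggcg
MCM6, chr2:135876486-135876565, minus strand: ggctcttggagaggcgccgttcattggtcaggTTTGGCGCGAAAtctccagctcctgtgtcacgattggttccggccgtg
E2F1, chr20:33686386-33686465, minus strand: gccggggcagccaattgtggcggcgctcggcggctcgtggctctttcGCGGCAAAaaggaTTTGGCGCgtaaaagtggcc
CDT1, chr16:88803709-88803788, plus strand: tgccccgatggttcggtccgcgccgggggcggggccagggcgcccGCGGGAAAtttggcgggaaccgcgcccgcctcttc

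Within these stretches UHRF1 and GMNN carried a word in the forward sense, PCNA, GINS2 and CDT1 carried its reverse complement, and MCM6 and E2F1 held a word in each sense, which overlapped in MCM6. The CCAAT box, searched in the same way, lay in 60.4% of the member windows against 35.1% of the windows of tested genes. TTTGAA, the core of the CHR element of late cell cycle genes, lay in 2.08% of the member windows against 10.4%. A match describes these letters only. MCM10, FEN1 and ORC1 held no E2F word in their windows.

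Library totals ran from 18526830 to 68753262 fragments, of which 6.26% to 7.17% lay in introns. All 42 members passed the filter on low counts in exons, in introns and in the exon/intron ratio. A member had 94 to 27596 exon counts in a library but only 1 to 2280 intron counts, and 7 members had under 10 intron counts in some library, so intron values were far less precise. No pair of libraries held identical counts. The label as an ovarian cancer line was set against markers: VIM stood at 6775 to 8454 exon counts per 1000000 TMM-scaled exon counts of a library (CPM, used for all levels of single genes) and KRT18 at 133 to 181, while WT1 reached at most 4.19, KRT19 2.79, KRT7 0.303 and PAX8 0.0758. KRT8 stood at 11.02 to 14.3 at 24 h and 30.7 to 34.5 at 72 h, EPCAM at 0.117 to 0.384 and 1.27 to 1.68, and MUC16 and MSLN were not analysed here. Of the genes of blood and endothelial cells reported here, PTPRC was at 0 in every library and CD3E, VWF and LYVE1 reached at most 1.20, but PECAM1 stood at 2387 to 2491 at 24 h and 1350 to 1524 at 72 h, CDH5 at 943 to 1046 and 658 to 783, and CD68 at 322 to 379 and 592 to 657. The summed level of these genes was 3797 to 3844 CPM in DMSO and 3698 to 3856 in cisplatin at 24 h, and 2667 to 2761 in DMSO and 2793 to 2900.2 in cisplatin at 72 h. From 24 h to 72 h PECAM1, CDH5 and KRT18 thus fell, while VIM, KRT8, EPCAM and CD68 rose. The part of these markers in the changes of the replication genes was not tested.

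The levels of the members spanned a wide range in DMSO at 24 h. Exon CPM was divided by the length of all annotated exons of a gene joined together. This length was 1.403 kb for PCNA but 8.005 kb for POLD2 and 9.852 kb for MCM4, so places between genes depend partly on the annotation. On this scale PCNA was first at 232 ± 3.07 (SD, n = 3), MCM7, a helicase subunit, second at 142 ± 2.67 and MCM2, another subunit, at 101 ± 8.07. FEN1, the nuclease that trims Okazaki fragments, followed at 93.1 ± 3.28 and MCM6 at 88.6 ± 2.40. The lowest levels were those of POLA1, the catalytic subunit of polymerase α, at 5.21 ± 0.161, of GINS3 at 2.07 ± 0.219 and of PRIM2, the large primase subunit, at 1.27 ± 0.0198. In this order the ranges of neighbours overlapped in 26 of 41 pairs, so that MCM2 and FEN1, for example, could not be ordered, whereas PCNA and MCM7 did not overlap with any neighbour. The median over the 42 members was 22.8 in DMSO and 23.3 in cisplatin at 24 h, and 9.98 and 10.8 at 72 h. By 72 h in DMSO, MCM7 stood at 81.4 ± 2.78 and PCNA at 70.5 ± 7.52, with ranges that overlapped. MCM4 had moved from place 10 to place 23, and RFC1, the large subunit of the clamp loader, from place 22 to place 11.

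**Figure D1:**
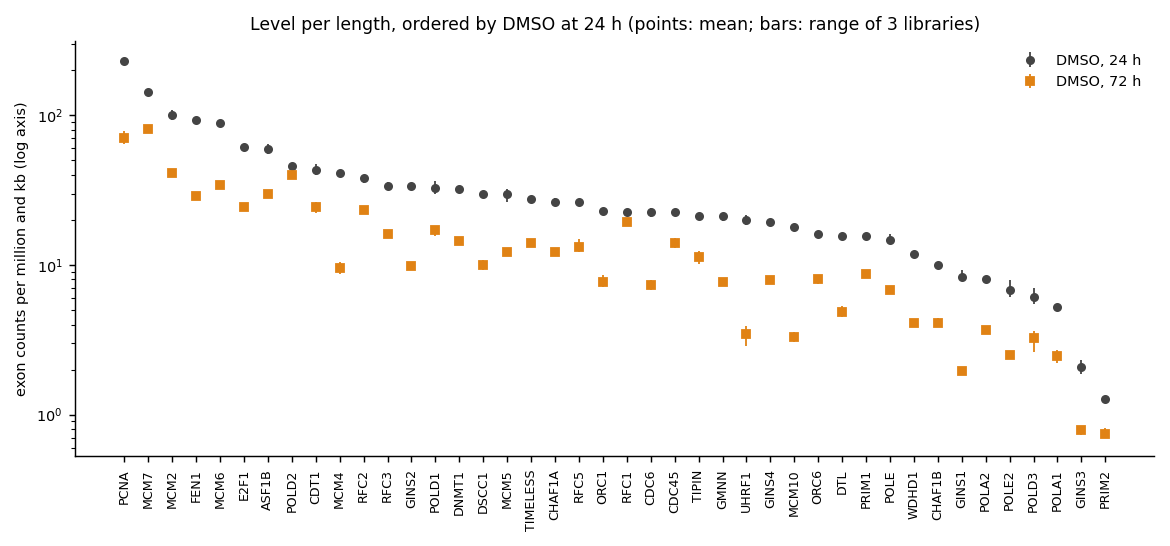
Exon CPM per kb (log axis) of the 42 members in DMSO, ordered by their level at 24 h. Points are means and bars the range of 3 libraries, and every member lies lower at 72 h (squares) than at 24 h (circles), from PCNA at 232 down to PRIM2 at 1.27.

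Exon counts of the replication genes fell with time in culture in both arms. Together the 42 members took 6542, 6460 and 6365 of every 1000000 exon counts, on library totals without TMM scaling, in the DMSO libraries at 24 h and 2954, 2909 and 2980 at 72 h. In cisplatin they took 6397, 6509 and 6417 at 24 h and 3330, 3180 and 3176 at 72 h. The summed level at 72 h was thus 0.457 times that at 24 h in DMSO and 0.501 times in cisplatin. All 42 members fell in DMSO (edgeR quasi-likelihood test, Benjamini-Hochberg adjusted over the 10444 genes tested, threshold 0.05), where 32.5% of all tested genes fell, and all 42 fell in cisplatin, where 31.5% fell. The median log2 change was -1.22 in DMSO and -1.08 in cisplatin, against 0.015 over all genes in DMSO. For each of the 42 members every 72 h library lay below every 24 h library, in both arms, which held for 33.4% of all genes in DMSO and 33.2% in cisplatin. In these bulk samples, fewer cells in S phase and less of these RNAs per cell cannot be told apart. Time in culture and anything else that differed between the harvests cannot be told apart either.

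**Figure D2:**
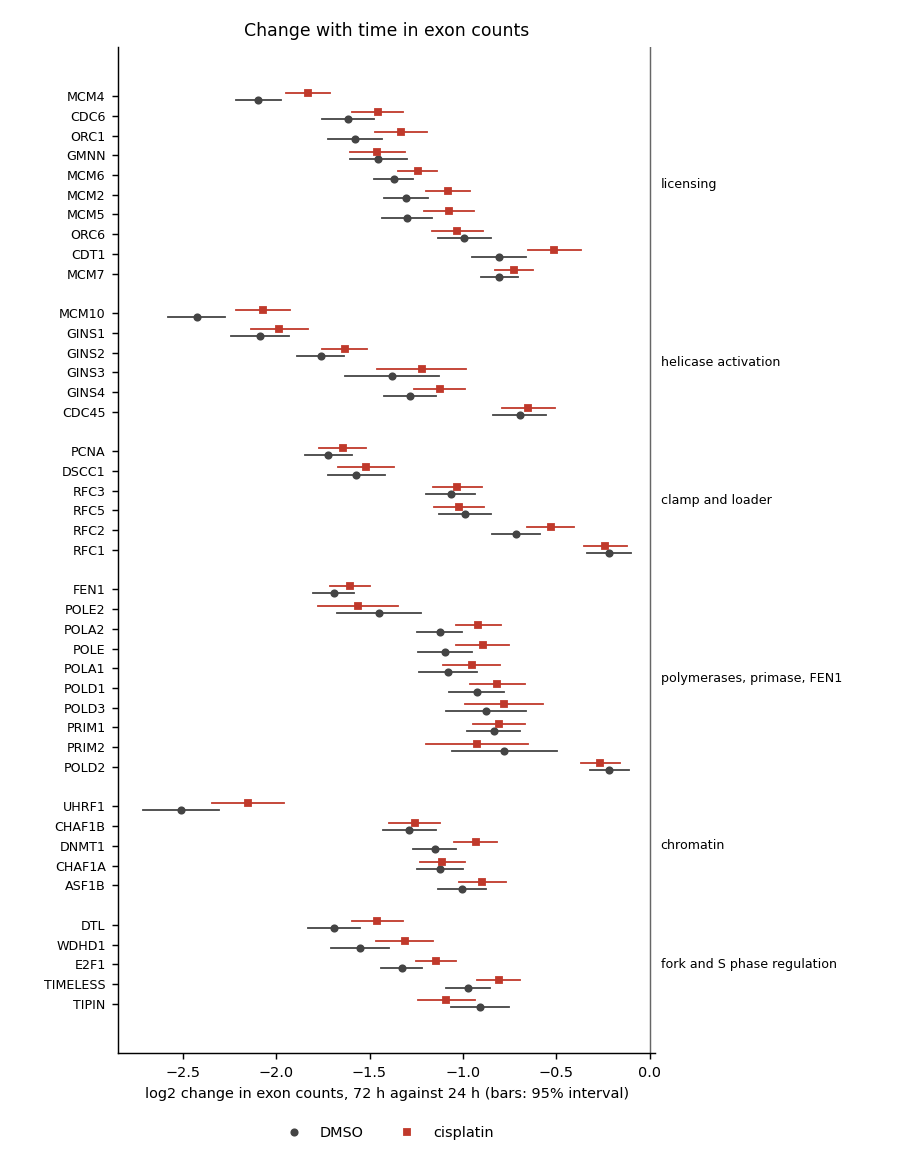
Log2 change in exon counts from 24 h to 72 h for the 42 members, grouped by role, in DMSO and in cisplatin, with 95% intervals. All points lie below 0, from UHRF1 at -2.51 in DMSO to RFC1 at -0.22 and POLD2 at -0.22.

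Among the 10 licensing genes with a row, the median log2 change was -1.34 in DMSO and -1.16 in cisplatin. MCM4, a subunit of the helicase, moved most of them, with 407, 395 and 407 exon CPM in DMSO at 24 h and 103, 85.4 and 94.6 at 72 h, 4.27-fold lower (log2 change -2.10, SE 0.058, adjusted p = 9.81e-19, edgeR). In cisplatin it stood at 403, 397 and 401 at 24 h and 117, 109 and 113 at 72 h (log2 change -1.83). The libraries at 72 h all stood far below those at 24 h in either arm. CDC6, the loading factor that recruits the helicase to the origin complex, was at 111, 122 and 127 in DMSO at 24 h and 35.9, 42.4 and 39.1 at 72 h (log2 change -1.62, SE 0.067, adjusted p = 9.01e-16, edgeR). Its cisplatin libraries held 127, 122 and 125 at 24 h and 47.96, 44.3 and 44.3 at 72 h (log2 change -1.46). Neither gene had overlapping libraries between the times.

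MCM2, a further subunit of the helicase ring, held 515, 476 and 439 exon CPM in DMSO at 24 h and 194, 184 and 201 at 72 h, 2.47-fold lower (log2 change -1.30, SE 0.057, adjusted p = 2.46e-15, edgeR). Under cisplatin its libraries held 454, 496 and 469 at 24 h and 218, 228 and 226 at 72 h (log2 change -1.08). For MCM6 the log2 change was -1.37 in DMSO and -1.24 in cisplatin, for MCM5 -1.30 and -1.07, and for MCM7 -0.80 and -0.73. The subunits of the ring thus differed in size of change from 1.75-fold for MCM7 to 4.27-fold for MCM4 in DMSO. GMNN, the inhibitor of CDT1, was at 48.7, 53.7 and 54.4 in DMSO at 24 h and 18.1, 20.1 and 18.99 at 72 h (log2 change -1.45, SE 0.074, adjusted p = 3.91e-14, edgeR). In cisplatin GMNN went from 52.4, 50.9 and 58.8 at 24 h to 19.4, 20.1 and 19.3 at 72 h (log2 change -1.46). CDT1 itself held 129.8, 115 and 111 at 24 h and 72.97, 61.5 and 69.01 at 72 h in DMSO (log2 change -0.81) and 113, 122 and 121 at 24 h and 77.3, 84.6 and 87.4 at 72 h in cisplatin (log2 change -0.51). ORC1, the ATPase of the origin complex, had log2 changes of -1.58 and -1.33, and ORC6, its smallest subunit, -0.99 and -1.03.

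The 6 genes that activate the helicase had the lowest median of the role groups, -1.57 in DMSO and -1.43 in cisplatin. MCM10, which acts at origins as the helicase is activated, held 101, 91.8 and 99.9 exon CPM in DMSO at 24 h and 18.1, 16.8 and 19.4 at 72 h, 5.37-fold lower (log2 change -2.43, SE 0.073, adjusted p = 5.44e-18, edgeR). In cisplatin MCM10 held 104, 101 and 92.9 at 24 h and 24.9, 22.3 and 24.00 at 72 h (log2 change -2.07). Only UHRF1 fell further among the 42 members. GINS1, a subunit of the GINS complex, held 62.9, 63.7 and 73.9 at 24 h and 16.3, 15.1 and 15.7 at 72 h in DMSO (log2 change -2.09) and 71.2, 66.6 and 66.9 at 24 h and 18.1, 16.3 and 17.4 at 72 h in cisplatin (log2 change -1.98). The other GINS subunits changed by -1.76 (GINS2), -1.38 (GINS3) and -1.28 (GINS4) on the log2 scale in DMSO, so all 4 subunits of this complex fell by over 2-fold. CDC45, which binds the helicase together with GINS, fell least of the 6, by 0.70 in DMSO and 0.65 in cisplatin on the log2 scale.

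The clamp and its loader ranged from PCNA, which fell most, to RFC1, which fell least. PCNA held 322, 330.2 and 325 exon CPM in DMSO at 24 h and 96.5, 111 and 89.9 at 72 h, 3.30-fold lower (log2 change -1.72, SE 0.061, adjusted p = 6.51e-17, edgeR). In cisplatin it held 332, 310.1 and 332 at 24 h and 101, 107 and 104 at 72 h (log2 change -1.64). DSCC1, a subunit of the alternative loader that acts in sister chromatid cohesion, changed from 71.4, 74.2 and 76.9 at 24 h to 25.1, 26.8 and 23.2 at 72 h in DMSO (log2 change -1.57). In cisplatin DSCC1 went from 78.6, 67.2 and 72.7 at 24 h to 27.2, 24.4 and 24.6 at 72 h (log2 change -1.52). Neither gene's libraries overlapped between the times. Of the subunits of the main loader, RFC3 and RFC5 changed by -1.07 and -0.99 in DMSO and RFC2 by -0.71. RFC1 fell by only 0.22 (adjusted p = 0.00177, edgeR), about the least of all members, with 143, 157 and 156 at 24 h and 128, 133 and 131 at 72 h. The median over the 6 genes was -1.03 in DMSO and -1.02 in cisplatin.

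Of the polymerases, primase and FEN1, 10 genes in all, FEN1 and POLE2 changed most. FEN1 held 197, 206 and 211 exon CPM in DMSO at 24 h and 60.9, 65.4 and 63.6 at 72 h, 3.23-fold lower (log2 change -1.69, SE 0.053, adjusted p = 7.52e-18, edgeR). In cisplatin it held 208, 209 and 206 at 24 h and 69.7, 66.00 and 69.4 at 72 h (log2 change -1.60). POLE2, the second subunit of polymerase ε, which copies the leading strand, held 19.03, 23.3 and 17.998 at 24 h and 6.94, 7.47 and 7.70 at 72 h in DMSO (log2 change -1.45) and 22.1, 19.7 and 23.9 at 24 h and 7.06, 7.63 and 7.41 at 72 h in cisplatin (log2 change -1.56). It was scarce in every library, yet its libraries did not overlap between the times. The catalytic subunits POLE, POLA1 and POLD1 changed by -1.10, -1.08 and -0.93 in DMSO, and the primase subunits PRIM1 and PRIM2 by -0.84 and -0.78. POLD2, the second subunit of polymerase δ, which also serves DNA repair, fell by 0.22 in DMSO (adjusted p = 0.000711, edgeR) and by 0.26 in cisplatin. The median of the 10 was -1.003 in DMSO and -0.90 in cisplatin.

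The 5 chromatin genes had a median of -1.15 in DMSO and -1.11 in cisplatin. UHRF1, which reads hemimethylated DNA and recruits DNMT1, changed most of all 42 members. Its libraries held 111, 101 and 95.6 exon CPM in DMSO at 24 h and 18.8, 14.8 and 19.99 at 72 h, 5.70-fold lower (log2 change -2.51, SE 0.098, adjusted p = 3.09e-16, edgeR). In cisplatin they held 93.7, 112 and 92.8 at 24 h and 24.2, 22.9 and 20.05 at 72 h (log2 change -2.15). DNMT1, the maintenance methyltransferase, fell by 1.15 and 0.93 on the log2 scale. CHAF1B, the middle subunit of the histone chaperone CAF-1, held 50.3, 51.6 and 51.9 at 24 h and 20.5, 22.4 and 20.2 at 72 h in DMSO (log2 change -1.29) and 56.8, 59.3 and 54.8 at 24 h and 25.2, 23.5 and 22.7 at 72 h in cisplatin (log2 change -1.26). CHAF1A, its largest subunit, and the chaperone ASF1B changed by -1.12 and -1.004 in DMSO.

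Of the 5 genes of fork protection and S phase control, DTL, the substrate receptor that directs CDT1 to degradation, held 74.8, 77.9 and 79.4 exon CPM in DMSO at 24 h and 22.2, 26.01 and 23.6 at 72 h (log2 change -1.69, SE 0.068, adjusted p = 5.07e-16, edgeR). In cisplatin it held 79.7, 76.01 and 77.2 at 24 h and 28.4, 26.7 and 29.8 at 72 h (log2 change -1.46). WDHD1, which links polymerase α to the helicase, held 70.8, 77.9 and 79.5 at 24 h and 25.5, 27.6 and 24.9 at 72 h in DMSO (log2 change -1.55) and 75.3, 73.1 and 77.2 at 24 h and 34.02, 28.1 and 28.5 at 72 h in cisplatin (log2 change -1.31). Both genes fell by over 2-fold in either arm. E2F1, the transcription factor that drives S phase genes, held 168, 165 and 161 in DMSO at 24 h and 67.3, 65.1 and 64.3 at 72 h (log2 change -1.33, SE 0.053, adjusted p = 4.65e-16, edgeR). In cisplatin E2F1 held 164, 166 and 153 at 24 h and 73.3, 72.8 and 72.9 at 72 h (log2 change -1.14). TIMELESS and TIPIN, which together stabilise the fork, changed by -0.97 and -0.91 in DMSO. The 20 members with an E2F word in a promoter window had a median log2 change of -1.35 in DMSO, from -2.51 (UHRF1) to -0.80 (MCM7). The 17 members with windows but no such word had a median of -0.99, from -2.43 (MCM10) to -0.22 (POLD2). These ranges overlapped widely, and the difference was not tested.

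**Figure D3:**
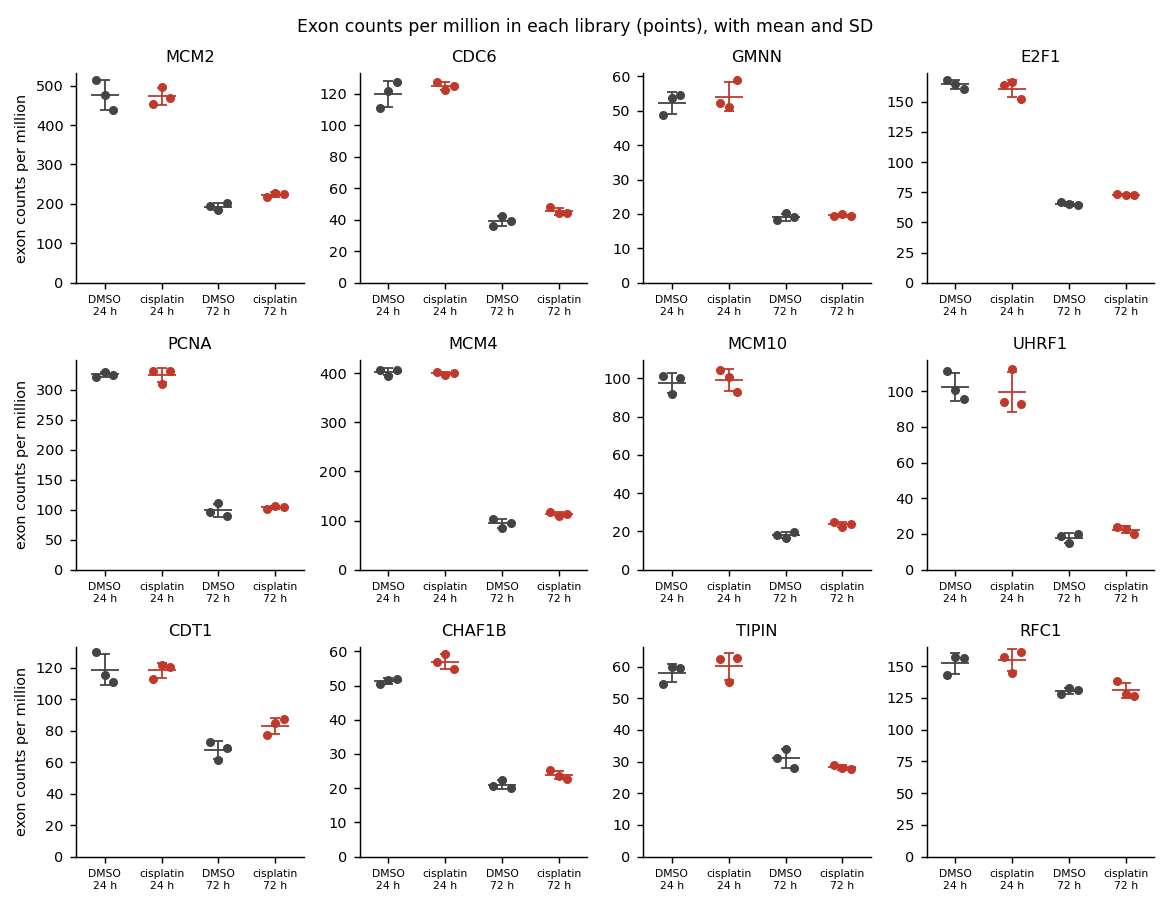
Exon CPM of 12 members in each of the 12 libraries (points), with the mean and SD of each group of 3. The 72 h libraries lie below the 24 h libraries in every panel, by a small step for RFC1 and a large step for MCM10 and UHRF1, and the cisplatin and DMSO points at 24 h lie close together.

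Genes near these in function fell with time too. Of 33 further replication genes with a row, 32 were tested in exon counts, of which 26 fell and 2 rose in DMSO with a median log2 change of -0.69, and 26 fell and 1 rose in cisplatin with a median of -0.58. CLSPN, the mediator of the replication checkpoint, changed most, by -2.17 in DMSO, while ORC4 and ORC5 were higher at 72 h by 0.35 and 0.19. All 19 genes of G2 and mitosis that were tested fell in both arms, with medians of -0.74 and -0.69, MKI67 by 1.40 in DMSO. In neither list did any gene pass the test between cisplatin and DMSO at either time.

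At 24 h the exon counts of the replication genes in cisplatin lay close to those in DMSO. None of the 42 members passed (edgeR, every adjusted p = 0.9997), as none of the 10444 genes did (0%). The summed level of the members was 0.998 times that in DMSO. The fitted log2 differences ran from -0.11 for ORC1 to 0.15 for CHAF1B, and the 95% intervals of all 42 lay between -0.25 and 0.32. CHAF1B was the single member with an unadjusted p under 0.05 (edgeR), where 1.36% of all genes had one with cisplatin higher, and its 3 cisplatin libraries stood above all 3 DMSO libraries. ORC1 held 63.6, 66.9 and 69.7 exon CPM in cisplatin and 69.95, 73.9 and 71.7 in DMSO, and MCM6 held 354.5, 334.9 and 355.3 in cisplatin and 355.4, 369.4 and 374.7 in DMSO, in both with every cisplatin library below every DMSO library, though by little (adjusted p = 0.9997 for both, edgeR). These were 2 of 42 members with all libraries lower, against 3.09% of all genes, and CHAF1B was 1 with all higher, against 3.33%. PCNA, MCM2, CDC6, GMNN and E2F1 had log2 differences of -0.0057, -0.011, 0.056, 0.045 and -0.030.

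At 72 h most members had somewhat higher exon counts in cisplatin than in DMSO, but no single member passed by edgeR. Their summed level was 1.10 times that in DMSO, and the fitted log2 difference was above 0 for 37 of 42 members, against 50.2% of all genes, with a median of 0.12 against 0.00052. At an unadjusted p under 0.05, 18 members had higher counts in cisplatin and none lower, against 6.62% of all genes higher. In 22 members all 3 cisplatin libraries lay above all 3 DMSO libraries, against 8.85% of all genes. After adjustment 0 of 42 members passed, and 3 of the 10444 genes did (0.0287%). These comparisons share the DMSO and cisplatin libraries at 72 h with those over time, so the smaller fall in cisplatin and the higher level at 72 h are not separate evidence. In the same libraries CDH5 stood at 742 to 783 exon CPM in cisplatin and 658 to 705 in DMSO. PECAM1 stood at 1415 to 1524 in cisplatin and 1350 to 1437 in DMSO, and CD68 at 592 to 657 and 610 to 641, both with overlap. The summed blood and endothelial genes stood at 2793 to 2900.2 in cisplatin and 2667 to 2761 in DMSO. The part of these genes in the result was not tested.

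MCM10 had the largest difference, with 24.9, 22.3 and 24.00 exon CPM in cisplatin and 18.1, 16.8 and 19.4 in DMSO (log2 difference 0.38, SE 0.074, adjusted p = 0.0884, edgeR). The groups did not overlap. UHRF1 followed, with 24.2, 22.9 and 20.05 against 18.8, 14.8 and 19.99, where the lowest cisplatin library lay only just above the highest DMSO library (log2 difference 0.32, adjusted p = 0.213, edgeR). CDT1, with 77.3, 84.6 and 87.4 against 72.97, 61.5 and 69.01, had a log2 difference of 0.29 (adjusted p = 0.151, edgeR). For MCM4, 117, 109 and 113 stood against 103, 85.4 and 94.6 (log2 difference 0.26, adjusted p = 0.151, edgeR). CDT1 and MCM4 libraries did not overlap between the arms. MCM2 had a log2 difference of 0.21, CDC6 of 0.22, E2F1 of 0.16, PCNA of 0.071 and GMNN of 0.040, the last pair with intervals that covered 0. At the other end TIPIN had -0.13 and PRIM2 -0.10.

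The calls at 72 h depended on the tool and on the filter. DESeq2 called 4 members higher in cisplatin, MCM10 (adjusted p = 0.00324), MCM4 (adjusted p = 0.0153), CDT1 (adjusted p = 0.0201) and MCM2 (adjusted p = 0.0374), where it called 0.364% of all genes higher, and edgeR without the filter on low counts called these, UHRF1 (adjusted p = 0.00671) and POLE (adjusted p = 0.0206), 6 members in all, where it called 0.707% higher. The difference between the cisplatin effects at the 2 times was itself tested: 0 of 42 members passed, as did none of all genes (0%), 14 had an unadjusted p under 0.05 with the higher effect at 72 h against 4.82% of all genes, and the smallest adjusted p was 0.454 (edgeR).

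**Figure D4:**
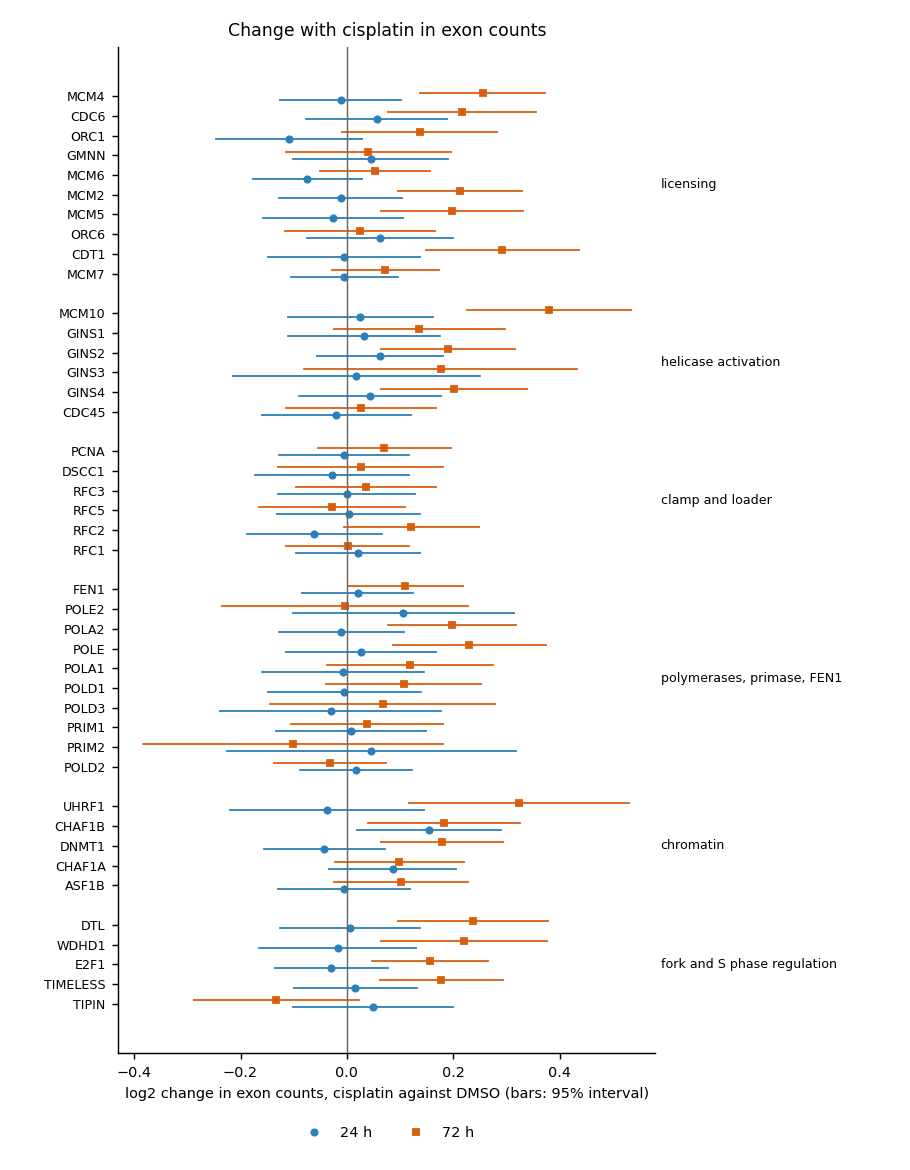
Log2 difference in exon counts between cisplatin and DMSO at 24 h (circles) and 72 h (squares) for the 42 members by role, with 95% intervals. At 24 h the points lie near 0, and at 72 h 37 of 42 lie above it, with MCM10 highest at 0.38 and TIPIN lowest at -0.13.

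Intron counts, the measure of unspliced RNA, also fell with time in most members. In DMSO 38 members fell, where 16.2% of the 9618 genes tested fell, with a median log2 change of -1.41 over all 42. MCM7 rose, where 17.2% of genes rose, and TIPIN, RFC1 and RFC2 did not pass (edgeR). In cisplatin 38 fell, where 15.4% of genes did, with a median of -1.23, and MCM7, TIPIN, RFC1 and GINS3 did not pass. Summed intron counts of the members went from 3571 ± 53.8 to 1665 ± 49.8 of every 1000000 intron counts in DMSO, on library totals without TMM scaling (SD, n = 3), and from 3634 ± 222 to 1769 ± 20.7 in cisplatin. MCM10 changed most in DMSO, from 40.8, 28.01 and 38.3 at 24 h to 4.70, 4.97 and 6.18 at 72 h intron CPM (log2 change -2.70, SE 0.30, adjusted p = 1.57e-10, edgeR). For PCNA the log2 change in DMSO was -1.47 in introns beside -1.72 in exons. Without TMM scaling the median of all genes shifted to -0.15 in DMSO and -0.12 in cisplatin, and 33.7% and 36.2% of the called genes were then higher, in place of 51.6% in each. Among the members 39 then fell and 1 rose in DMSO, where 2331 and 1183 of the 9618 genes did. In cisplatin 38 members fell, where 2060 genes did.

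MCM7 was the member whose intron counts rose with time in DMSO while its exon counts fell in both arms. TIPIN and RFC1, whose exon counts also fell, did not pass in introns in either arm. It held 417, 421 and 349 intron CPM in DMSO at 24 h and 491, 557 and 559.9 at 72 h, without overlap (log2 change 0.44, SE 0.093, adjusted p = 0.000183, edgeR). In cisplatin it held 405, 460.4 and 413 at 24 h and 469, 491 and 498 at 72 h (log2 change 0.19, adjusted p = 0.120, edgeR). Without TMM scaling the rise in DMSO was 0.30 (adjusted p = 0.00799, edgeR), and the log2 change in cisplatin was 0.085 (adjusted p = 0.489, edgeR). MCM7 lies at chr7:100092233-100101940 on the minus strand of GRCh38 and holds 3 microRNA genes on its own strand, of which MIR25 and MIR106B lie in an intron, while AP4M1 overlaps its 5′ end on the other strand. Whether the counting used strand is not given in the sources used here, so reads of MCM7 and of this neighbour cannot be told apart. In all, 28 of the 42 members overlapped another annotated gene and 12 a protein-coding one, 6 on the same and 7 on the opposite strand, and 4 had a microRNA gene of the same strand in an intron. On the same strand POLA2 shared 44032 of its 44047 bases with a protein-coding gene, and FEN1 4259 of 4328 with FADS2. Strand does not separate such reads, and their part in the counts of POLA2 and FEN1 was not tested.

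**Figure D5:**
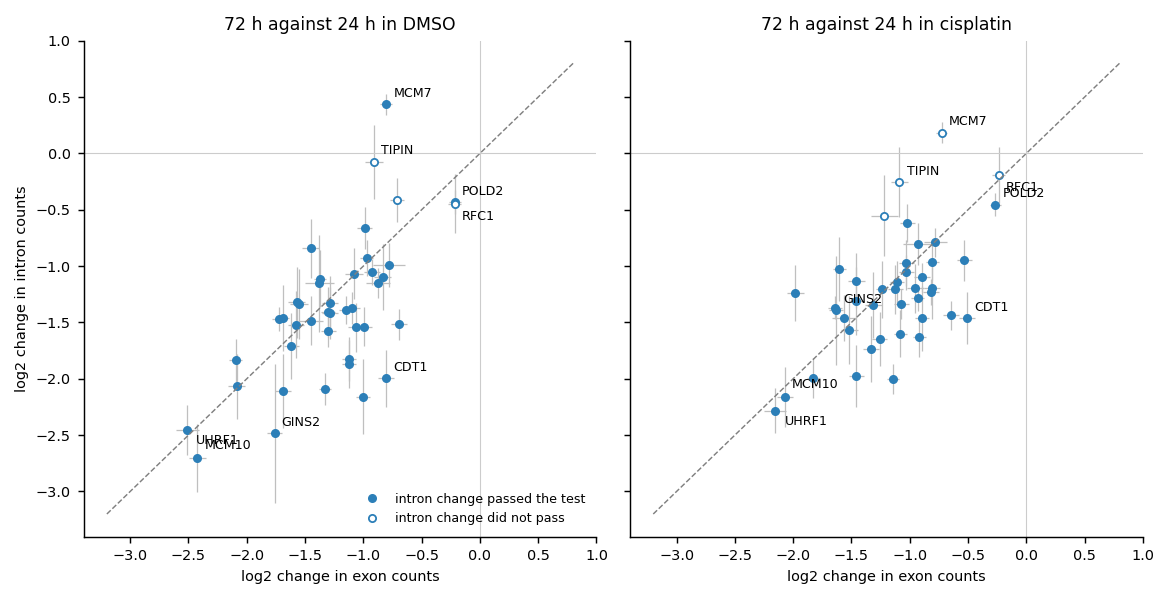
Log2 change from 24 h to 72 h in exon counts (x axis) against that in intron counts (y axis) for the 42 members, in DMSO and in cisplatin, with standard errors. Filled points passed the test in introns, the dashed line marks equal change, and MCM7 lies alone above 0 on the y axis at 0.44 and 0.19.

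No member passed in intron counts between cisplatin and DMSO. At 24 h 0 of 42 members passed, where 0.0208% of all genes did, and no member had an unadjusted p under 0.05. RFC2 and MCM5 had the smallest unadjusted p (edgeR), with 67.5, 54.3 and 47.1 intron CPM in cisplatin against 40.3, 44.3 and 58.1 in DMSO for RFC2 and 140.2, 162 and 159.5 against 129.8, 131 and 148 for MCM5, and both pairs of groups overlapped. At 72 h 0 of 42 passed, where 0.0416% of all genes did, and 6 had an unadjusted p under 0.05, all higher in cisplatin, against 2.90% of all genes. CHAF1A held 30.2, 24.1 and 29.6 in cisplatin and 12.9, 10.5 and 20.9 in DMSO, without overlap (log2 change 0.84, SE 0.22, adjusted p = 0.200, edgeR). ORC6 held 50.6, 41.3 and 37.7 in cisplatin and 23.5, 33.1 and 32.6 in DMSO (log2 change 0.53, SE 0.17, adjusted p = 0.615, edgeR). CHAF1A passed once 1 library was left out, since without DMSO 72 h replicate 3 its log2 difference was 1.24 (adjusted p = 0.0297, edgeR).

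The exon/intron ratio, exon counts over intron counts of a gene in a library, was the measure of how much of its RNA had been spliced. Over time in DMSO it rose in 6 members, where 8.09% of 9380 genes rose, and fell in 1, where 3.37% fell (edgeR with a term for each library). The 6 were CDT1 (log2 change 1.25), ASF1B (1.20), CDC45 (0.89), E2F1 (0.82), CHAF1A (0.82) and POLA2 (0.77), and the member that fell was MCM7 (log2 change -1.17, SE 0.11, adjusted p = 4.24e-08, edgeR). In cisplatin the ratio rose in 6 members, where 8.36% of genes rose, namely CDT1, E2F1, CDC45, POLA2, POLD1 and DNMT1, and fell in 1, MCM7 (log2 change -0.85), where 3.56% fell. CDT1 had ratios of 42.3, 34.8 and 33.2 in DMSO at 24 h and 102, 70.5 and 93.1 at 72 h, and E2F1 of 9.28, 14.1 and 11.01 at 24 h and 21.8, 16.8 and 21.5 at 72 h. MCM7 went from 23.8, 24.4 and 26.1 at 24 h to 11.7, 10.6 and 10.6 at 72 h in DMSO and from 21.5, 19.4 and 24.5 at 24 h to 13.1, 12.1 and 10.9 at 72 h in cisplatin. None of these groups overlapped. The median over all 42 members was 0.19 in DMSO and 0.17 in cisplatin, beside 0.10 and 0.11 over all genes.

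Between cisplatin and DMSO the ratio of 0 members passed by edgeR at 24 h, as of 0% of all genes, and of 0 at 72 h, where 0.0213% of genes did. RFC2 at 24 h had ratios of 16.1, 17.8 and 24.7 in cisplatin and 29.7, 28.97 and 17.7 in DMSO (log2 difference -0.42, adjusted p = 0.780, edgeR). MCM5 at 24 h had 18.5, 16.9 and 19.4 in cisplatin and 24.9, 25.1 and 16.9 in DMSO, and both genes overlapped between the arms. CHAF1A at 72 h had 26.6, 31.8 and 25.5 in cisplatin and 58.4, 72.4 and 37.5 in DMSO (log2 difference -0.82, adjusted p = 0.490, edgeR), and ORC6 had 9.38, 12.1 and 12.9 in cisplatin and 23.4, 15.6 and 14.1 in DMSO (log2 difference -0.57, adjusted p = 0.708, edgeR). In these the arms did not overlap. At 72 h the ratios of 4 of the 42 members lay lower in every cisplatin library than in every DMSO library, against 11.8% of all genes tested, also GINS1 and ASF1B, and those of 3 lay higher, RFC2, POLD1 and CHAF1B, against 2.56%. The member median was -0.09 at 24 h and -0.11 at 72 h, beside -0.09 and -0.08 over all genes.

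Logistic regression of exon against intron counts, the test the study used, takes each fragment as an independent draw and called more members. At 24 h it called 5 lower in cisplatin, RFC2, RFC5, MCM5, E2F1 and MCM7, where it called 10.7% of genes lower. At 72 h it called 6 lower, CHAF1A, GINS1, ORC6, POLD3, RFC5 and MCM5, where 9.70% of genes were lower, and MCM7 higher by 0.16, where 1.73% were higher. This split was not stable, with 2 lower and 2 higher without DMSO 72 h replicate 3, 3 and 3 without cisplatin 72 h replicate 2, and 8 and 1 without cisplatin 72 h replicate 1. Only RFC5 and MCM5 were called lower at both times, though other members, such as POLE, had lower ratios at both times without a call. Over time it called 13 members higher and 4 lower in DMSO, where 22.5% and 11.1% of genes were called, and 16 higher and 5 lower in cisplatin, where 29.0% and 11.6% were. A quasi-binomial fit, which lets the libraries of a group differ, called 0 members at either time between cisplatin and DMSO, and 1 and 0 members over time in DMSO and in cisplatin. The share of all genes called by this fit is not given here, so these counts do not set the members apart from other genes. None of the 5 calls at 24 h was made without cisplatin 24 h replicate 2. That library held 7.15% of its fragments in introns and, with 36911333, the most fragments of the 24 h libraries. The cause of the lost calls was not tested.

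The study's splicing score, the log2 of the mean exon/intron ratio in one group over that in another, was taken for each member. Its median over the members was -0.071 at 24 h and -0.14 at 72 h, cisplatin over DMSO, beside -0.070 and -0.094 over all genes. The scores of the single cisplatin libraries had an SD of 0.143 at 24 h, larger than the median itself, and of 0.0817 at 72 h. Over time the median was 0.29 in DMSO and 0.15 in cisplatin, beside 0.10 and 0.072 over all genes. The score was below 0 in 29 of 42 members at 24 h, beside 62.2% of all genes, and in 28 at 72 h, beside 67.3%. Over time it was above 0 in 32 members in DMSO, beside 60.1% of all genes, and in 30 in cisplatin, beside 57.9%.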

How the data were processed

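RNA of TYK-nu cells in 12 libraries was prepared with a strand-marking kit and sequenced in pairs. The authors trimmed reads (Trim Galore 0.6.0, FastQC 0.11.8), aligned them to GRCh38 with HISAT2 2.1.0 and counted them with HTSeq against exons (intersection-strict) and introns (union) of Ensembl 98, after poly(A) selection that keeps few unspliced RNAs. The HTSeq version and strand setting are not given in the sources used here. The deposited values are raw counts per gene, not normalized.

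Exon and intron counts were fitted with edgeR 4.0.16 (quasi-likelihood, filterByExpr, TMM, limma 3.58.1, R 4.3.3) over all 12 libraries in 1 model of 4 groups, with Benjamini-Hochberg adjustment over all genes tested and a threshold of 0.05. CPM of single genes use TMM-scaled library sizes of exon or intron counts (factors 0.988 to 1.03 and 0.933 to 1.07), and sums over the members use plain library totals. The ratio was fitted by edgeR with a term per library and by binomial logistic regression (Wald test). DESeq2 1.42.0, other scalings, filters, a replicate block, thinning and leaving out each library were alternatives. The fits were tested on simulated data.

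Members, role groups and lists were chosen with earlier results of these data known. Library values were named by a rule: PCNA, MCM2, CDC6, GMNN and E2F1, up to 2 members per role with the largest change in time, and those with the smallest unadjusted p between cisplatin and DMSO (3 in exons, 2 in introns, 2 in the ratio), 22 genes in all. The other members with values were named after these were seen. A listed marker gene is not reported here. Gene positions come from GENCODE 44 on GRCh38.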

Additional observations from a re-analysis of the deposited data

How the results depend on the processing

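All 42 members fell with time in exon counts in both arms under every alternative run. Between cisplatin and DMSO at 72 h, the count of members called in exon counts was 0 in the reported fit, 6 without the filter on low counts and 4 with DESeq2. Leaving out 1 library gave 0 to 1, with MCM4 called without DMSO 72 h replicate 1 (log2 difference 0.32, adjusted p = 0.0404) and MCM10 without DMSO 72 h replicate 3 (0.44, adjusted p = 0.0243) or cisplatin 72 h replicate 2 (0.43, adjusted p = 0.0472), all by edgeR. In introns at 72 h, 1 member was called with all libraries thinned to the smallest (CHAF1A, 1.27, adjusted p = 0.0495) and 0 to 1 with 1 library left out. The cause of these changes was not tested.

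For the logistic regression, the quasi-binomial fit gave 0 members at 24 h, 0 at 72 h, 1 over time in DMSO and 0 over time in cisplatin. Leaving out 1 library moved the counts of the plain fit to 0 to 9 at 24 h, with 2 without DMSO 24 h replicate 2, 0 without cisplatin 24 h replicate 2 and 9 without DMSO 24 h replicate 3 or cisplatin 24 h replicate 1 or 3, and to 4 to 9 at 72 h, with 4 without DMSO 72 h replicate 3. The splicing score over time in DMSO was 0.19 from summed counts and 0.20 to 0.32 with 1 library left out, and in cisplatin 0.10 to 0.25. At 24 h between the arms it ran from -0.15 to 0.024, so its sign changed with the library left out. The members' share of intron counts on the TMM scale was 1.02 times DMSO at 72 h, 0.515 times the 24 h value in DMSO and 0.521 times in cisplatin. On plain library totals it was 1.06 times DMSO at 72 h, or 1.05 to 1.08 with 1 library left out, and 0.487 times the 24 h value in cisplatin, or 0.476 to 0.504 with 1 left out.

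With a replicate block in the model, calls between the arms at 24 h and 72 h and over time in DMSO and cisplatin were 0, 0, 42 and 42 in exons, 0, 0, 39 and 38 in introns, 0, 0, 7 and 7 in the edgeR ratio and 5, 7, 18 and 21 in the logistic regression. Deviations of same-numbered libraries correlated between -0.203 and 0.131. With 3 libraries per group, this cannot settle whether the numbers paired the libraries. Low intron counts limited the ratio, with 7 members under 10 in some library. Over all genes, 3 passed in exon counts at 72 h, but 154 without the filter, 79 with DESeq2 and 72 without DMSO 72 h replicate 3. For the 22 named genes, leaving out 1 library left 2836 values on their side of the threshold, moved 28 past it and 40 back, the quasi-binomial fit left 64 and moved 24 back, and the other alternatives left 1997, moved 17 past and 1 back.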
